A study of Mus musculus with 6 samples.

Results

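Heat shock proteins and their DnaJ partners are the chaperones that fold new proteins, refold damaged ones and hand others to degradation. They were followed here in common myeloid progenitors (CMP), bone marrow precursors of granulocytes, monocytes, megakaryocytes and red cells, sorted by their content of reactive oxygen species (ROS). The members are the genes whose single symbol in the array's annotation begins with Hspa, Hspb, Hspd, Hspe, Hsph, Hsp90, Dnaja, Dnajb or Dnajc. There were 72 of them among the 18193 genes with a single symbol, read by 174 probe sets. For each gene the probe set with the highest mean over the arrays was used, and 46 members had more than 1. Hsp90ab1 had no probe set of a single symbol, and Dnajc19 only 3 probe sets shared with its pseudogene, so both are not analysed here.

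The samples were 3 arrays of high-ROS CMP and 3 arrays of low-ROS CMP. Both groups came from C57BL6 mice, with marrow flushed from femurs, tibiae and ilia, and were gated by fluorescence of H2-DCFDA, a dye that shines when ROS oxidise it. The labels give the animals no treatment or mutation, and their age, their number and any pooling are not given in the sources used here. It is not stated whether replicates are separate mice or sorts, so the p-values rest on a spread between samples that could be technical. Precision is limited by having 3 arrays in each group.

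Chaperones work in families. Hsp70 proteins clamp onto exposed stretches of a client protein in a cycle of ATP binding and hydrolysis, DnaJ proteins (Hsp40) deliver the client and trigger hydrolysis, and nucleotide exchange factors, among them the Hsp110 proteins, release it. Hsp90 matures kinases and receptors, the Hsp60 and Hsp10 chaperonin folds proteins inside mitochondria, and small heat shock proteins hold unfolded chains. Heat, oxidants and other stresses that unfold proteins in the cytosol activate heat shock factor Hsf1, which switches on inducible members, while unfolded proteins in the endoplasmic reticulum raise another set through the unfolded protein response.

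No member passed the test between high-ROS and low-ROS CMP. The test was limma's moderated test on log2(signal + 16), with p-values adjusted over all 18193 genes by Benjamini-Hochberg, and differences are high-ROS minus low-ROS. At an adjusted p under 0.05, 0 of 72 members were higher, against 0.0165% of all genes, and 0 lower, against 0.0385%, which makes 0.055% in either direction. The lowest adjusted p of a member was 0.305, and 0 members passed at an adjusted p under 0.1, where 0.0934% of all genes did. At an unadjusted p under 0.05, 1 member was higher, against 4.44% of all genes, and 1 lower, against 3.37%, where 7.81% of all genes passed in either direction. The groups did not overlap for 3 members, against 13.4% of all genes. The median difference was 0.01 over the members and 0.02 over all genes, and 38 members had a higher and 34 a lower mean in high-ROS CMP. Of all 18193 genes, 9832 had a higher and 8361 a lower mean. For 55 members the difference was smaller than 0.25 on the log2 scale, and for 49 it was smaller than the spread between arrays of a group (pooled SD). A p that misses the threshold does not show equal levels. The 95% confidence interval lay within 1 log2 unit on both sides of 0 for 70 members and within 0.5 for 30. In bulk samples such as these, fewer cells of a type and less RNA per cell cannot be told apart.

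**Figure D1:**
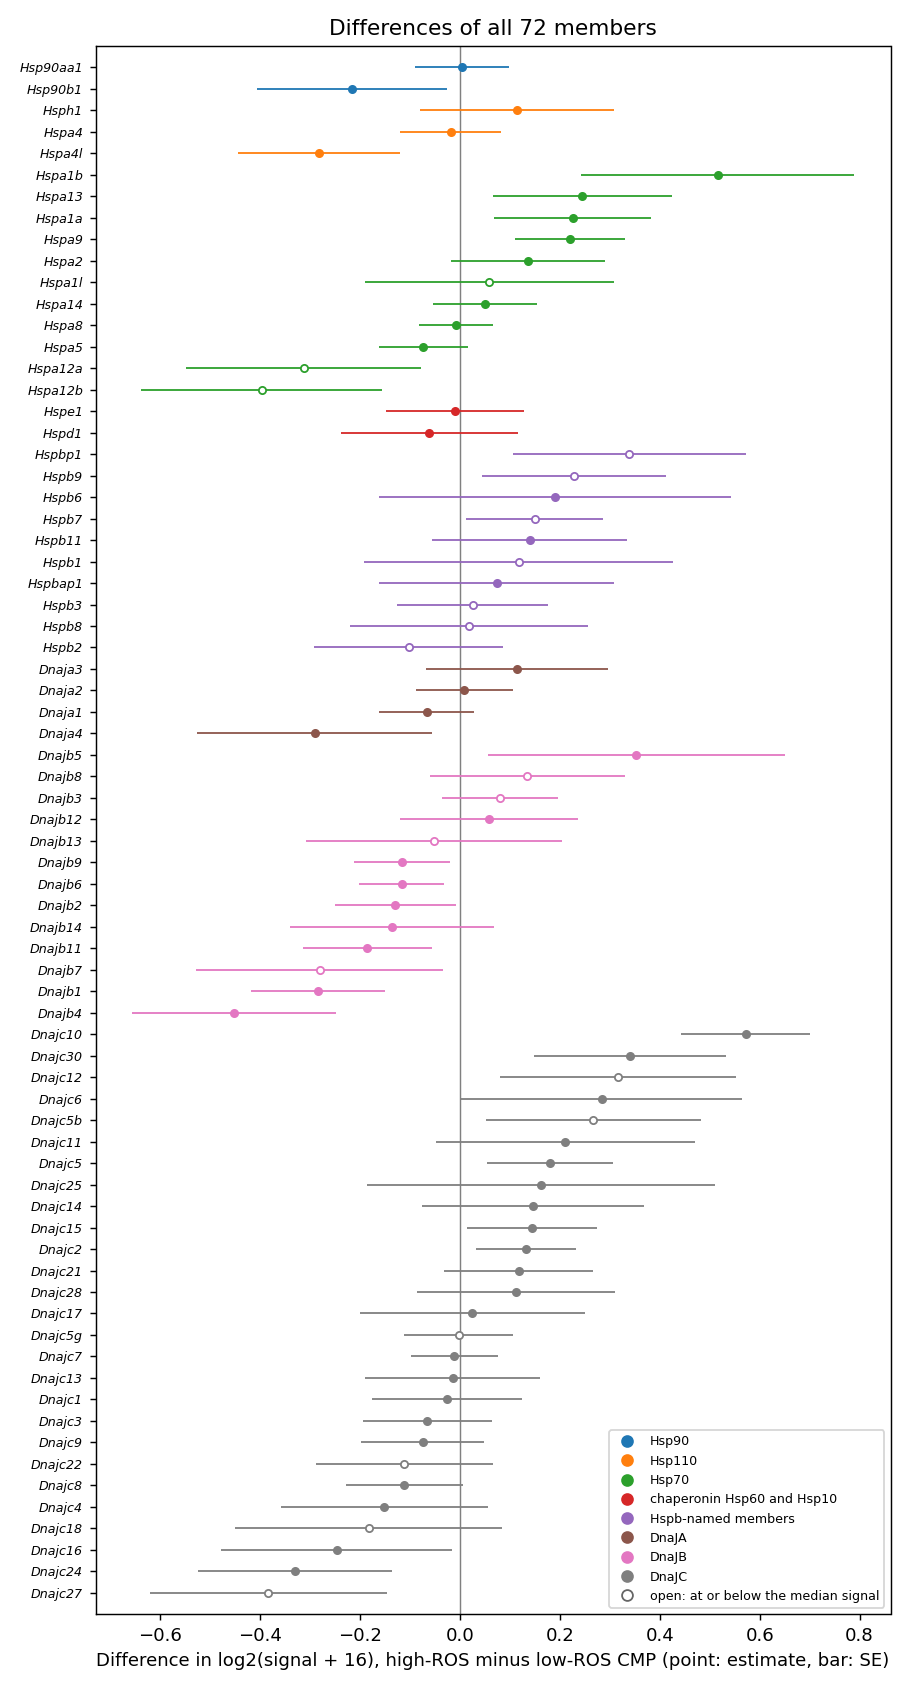
Difference in log2(signal + 16), high-ROS minus low-ROS CMP, for each of the 72 members, by family. Points are limma estimates, bars their SE, and open points mark the 20 members at or below the median signal of all genes; Dnajc10, at 0.57, lies farthest to the right and Dnajb4, at -0.45, farthest to the left.

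Among the cytosolic Hsp70 proteins, the stress-inducible pair varied widely between arrays of a group. Hspa1b, on chromosome 17, had signals of 3125, 4972 and 4099 in high-ROS replicates 1 to 3 and of 1730, 4467 and 2800 in low-ROS replicates 1 to 3. The groups overlapped, with replicate 2 on top in each and low-ROS replicate 1 at the bottom. The log2 difference was 0.52 (SE 0.274, 95% interval -0.09 to 1.12, limma adjusted p = 0.675). It was 0.17 without low-ROS replicate 1 (adjusted p = 0.887), 0.85 without low-ROS replicate 2 and 0.80 with the log2 Gapdh 3' to 5' signal ratio, one of 3 such control ratios on the array, as a covariate. Its neighbour and near-identical copy Hspa1a had 3253, 4152 and 3644 in high-ROS CMP and 2407, 3950 and 3232 in low-ROS CMP, a log2 difference of 0.23 (SE 0.157, adjusted p = 0.747). Because the copies are so alike, their probe sets may read each other's transcripts, so the pair is not independent evidence.

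The constitutive Hsp70 proteins had small differences. Hspa8, the housekeeping Hsc70 that also uncoats clathrin vesicles, had 8143, 8196 and 7165 in high-ROS CMP and 8145, 7964 and 7502 in low-ROS CMP. Its log2 difference was -0.01 (SE 0.0746), with a 95% interval from -0.17 to 0.16. Hspa4, an Hsp110-type exchange factor, had 2780, 3146 and 2497 in high-ROS CMP and 2665, 2850 and 2988 in low-ROS CMP, which overlap, a difference of -0.02 (SE 0.101, 95% interval -0.24 to 0.20). Hspa2, best known for its part in sperm formation, had 518, 681 and 777 in high-ROS CMP and 589, 592 and 589 in low-ROS CMP, a difference of 0.14 (SE 0.154) with overlapping groups. Hspa12a, Hspa12b and Hspa1l were at or below the median signal of all genes on the array. Their differences were -0.31 (SE 0.235), -0.40 (SE 0.242) and 0.06 (SE 0.249), with overlapping groups.

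Hsph1, the inducible Hsp110 that swaps nucleotide on Hsp70, also had its highest signal on replicate 2 of each group. It had 1699, 2153 and 1421 in high-ROS CMP and 1468, 2180 and 1277 in low-ROS CMP. The groups overlapped, and the log2 difference between them was 0.11 (SE 0.194, 95% interval -0.31 to 0.54). Hsp90aa1, the inducible cytosolic Hsp90, had 3348, 3945 and 3450 in high-ROS CMP and 3383, 3896 and 3433 in low-ROS CMP. On this brightest probe set, the values of the same replicate number in both groups were nearly equal. The group difference was 0.00 (SE 0.0940, 95% interval -0.20 to 0.21). Another bright probe set of Hsp90aa1 had 2869, 3087 and 3328 in high-ROS CMP and 2557, 2849 and 2632 in low-ROS CMP, which do not overlap. Its difference was 0.21 (SE 0.0940, limma adjusted p = 0.679 when each probe set was tested alone). The remaining bright probe set of Hsp90aa1 gave 0.06, and the dim ones gave -0.16 and -0.33. Hspa4l, another Hsp110-type protein, named here after its values were seen, averaged 757 ± 178 in high-ROS CMP and 909 ± 51.7 in low-ROS CMP (SD, n = 3 arrays each). Its log2 difference was -0.28 (SE 0.161, limma adjusted p = 0.703), whereas its 4 other probe sets, all dimmer, gave 0.05 to 0.11.

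**Figure D2:**
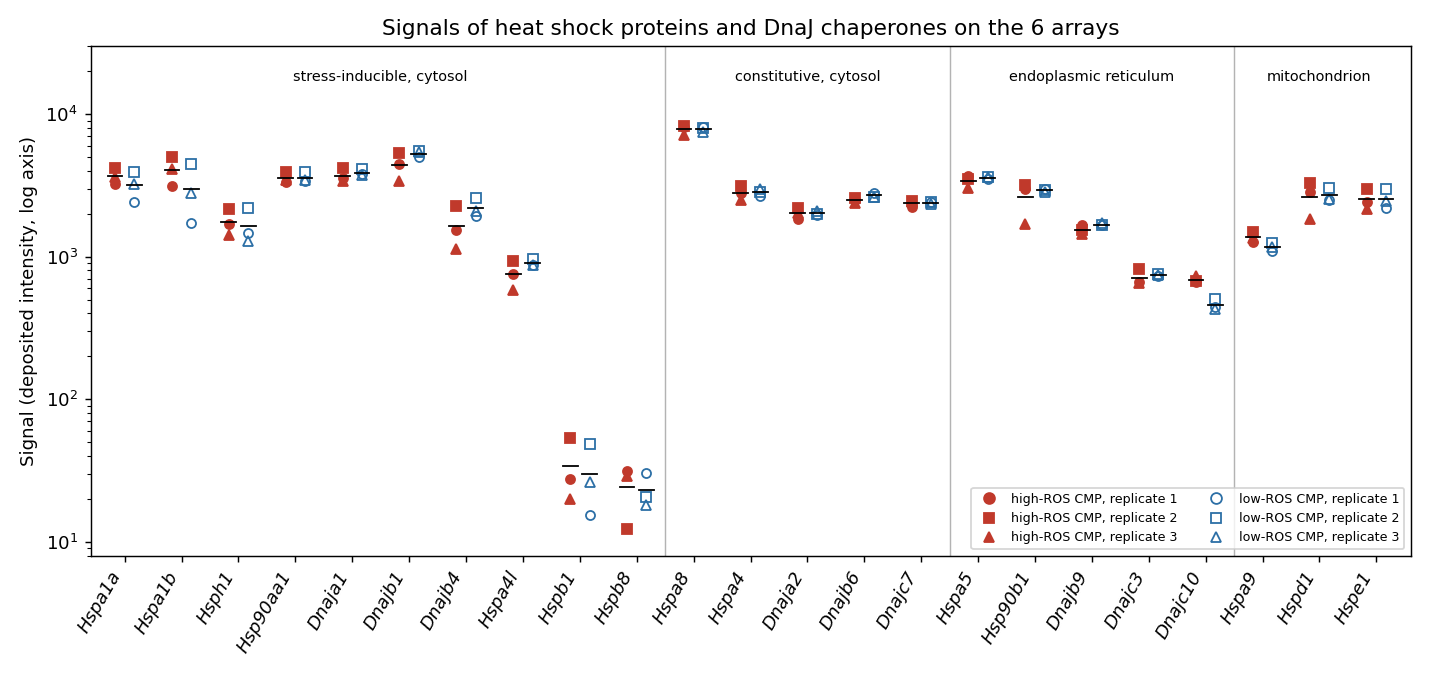
Deposited signal (log axis) of 23 members on each array, with high-ROS CMP as filled and low-ROS CMP as open symbols, replicates by shape and group means as bars; levels of different genes are read by different probes and are not comparable. The squares of replicate 2 lie highest in both groups for Hspa1a, Hspa1b, Hsph1 and Hsp90aa1, and the 3 high-ROS points of Dnajc10 lie above its 3 low-ROS points.

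Among the DnaJ partners of cytosolic Hsp70, Dnajb4 and Dnajb1 had the smallest p. Dnajb1, the inducible Hsp40 on chromosome 8, had 4478, 5311 and 3397 in high-ROS CMP and 4969, 5457 and 5405 in low-ROS CMP. High-ROS replicate 3 was far below the other 5 arrays, and the groups overlapped. The log2 difference was -0.29 (SE 0.134, adjusted p = 0.638). It was -0.11 without high-ROS replicate 3 and 0.04 with the Gapdh covariate, but -0.43 without high-ROS replicate 2. Dnajb4, a related cytosolic Hsp40, had 1547, 2252 and 1137 in high-ROS CMP and 1915, 2559 and 2090 in low-ROS CMP. Its difference was -0.45 (SE 0.205), with an unadjusted limma p of 0.0489 and an adjusted p of 0.638, and the groups overlapped. It was -0.22 without high-ROS replicate 3, 0.02 with the Gapdh covariate and -0.71 without high-ROS replicate 2.

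The other named cytosolic DnaJ proteins, and Dnajb5 and Dnajc25, which were not assigned a compartment here, had limma adjusted p of 0.748 or more. Dnajb6, which keeps aggregation-prone proteins soluble, had 2494, 2565 and 2366 in high-ROS CMP and 2811, 2621 and 2621 in low-ROS CMP. These groups did not overlap, yet the difference was small, at -0.12 (SE 0.0850, adjusted p = 0.760). Dnaja1 and Dnaja2, general partners of Hsp70, had differences of -0.07 (SE 0.0954) and 0.01 (SE 0.0965). Dnajc7, which links Hsp70 to Hsp90, had -0.01 (SE 0.0868), and Dnajc5, the cysteine string protein of secretory vesicles, 0.18 (SE 0.126). Dnajb5 ranged from 71.6 to 172 in high-ROS CMP and from 79.8 to 118 in low-ROS CMP, and Dnajc25 from 183 to 207 in high-ROS CMP and from 91.2 to 346 in low-ROS CMP. Their SEs, 0.297 and 0.348, were close to or above their differences of 0.35 and 0.16. By family, the mean was lower in high-ROS CMP for 9 of 13 DnaJB members (median difference -0.12), 13 of 27 DnaJC members (0.02) and 2 of 4 DnaJA members (-0.03).

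In the endoplasmic reticulum, Dnajc10 had the smallest p of all members. It encodes ERdj5, a disulfide reductase that helps Hspa5 unfold proteins for degradation. On chromosome 2 (Entrez Gene 66861), it had 659, 678 and 735 in high-ROS CMP and 441, 507 and 432 in low-ROS CMP. Every high-ROS array was above every low-ROS array, and the signal was 1.49-fold higher in high-ROS CMP, a log2 difference of 0.57 (SE 0.129, 95% interval 0.29 to 0.86). The unadjusted limma p was 0.000990, but over all genes the adjusted p was 0.305. Over the alternative settings the difference lay between 0.45 and 0.65 and the adjusted p between 0.184 and 0.759. Its other probe sets, both dimmer, gave 0.46 and 0.34, and on both the groups overlapped and low-ROS replicate 1 was the lowest array.

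The other named chaperones listed in this compartment had differences below 0 on their brightest probe sets, with both signs among the others. Hspa5 (BiP), the Hsp70 of the endoplasmic reticulum, had 3669, 3521 and 3043 in high-ROS CMP and 3501, 3602 and 3633 in low-ROS CMP, a log2 difference of -0.07 (SE 0.0894, 95% interval -0.27 to 0.12). A second probe set of Hspa5, with means of 2866 in high-ROS CMP and 2843 in low-ROS CMP, gave 0.01. A dim one gave 0.71, with a limma adjusted p of 0.647 when each probe set was tested alone. The mean over the probe sets of Hspa5 gave 0.21. Hsp90b1 (Grp94) had 2960, 3181 and 1687 in high-ROS CMP and 2961, 2950 and 2856 in low-ROS CMP, with only high-ROS replicate 3 low. Its difference was -0.22 (SE 0.190), and it was 0.07 without that array and 0.20 with the Gapdh covariate. The second probe set of Hsp90b1 gave 2595, 2842 and 2542 in high-ROS CMP and 2678, 2556 and 2595 in low-ROS CMP, a difference of 0.03, and replicate 3 did not stand apart. Dnajb9 (ERdj4), which restrains the stress sensor Ern1, had a difference of -0.12 (SE 0.0968), and Dnajc3 (p58IPK), an inhibitor of eIF2alpha kinases, -0.07 (SE 0.129). Other probe sets of Dnajc3 gave -0.67, with 1261 on low-ROS replicate 1, and 0.14. Of the 10 listed members of this compartment, 3 had a higher and 7 a lower mean in high-ROS CMP, with a median difference of -0.07.

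In mitochondria, Hspa9 (mortalin), which pulls proteins across the inner membrane, had 1263, 1494 and 1347 in high-ROS CMP and 1091, 1245 and 1177 in low-ROS CMP. The groups did not overlap, and the log2 difference was 0.22 (SE 0.110, 95% interval -0.02 to 0.46, limma adjusted p = 0.653). A second probe set of Hspa9 of similar brightness had 1288, 1279 and 933 in high-ROS CMP and 1266, 1175 and 1068 in low-ROS CMP, which overlap, with a difference of -0.02 (SE 0.142). The chaperonin Hspd1 (Hsp60) had 2820, 3257 and 1832 in high-ROS CMP and 2503, 3034 and 2520 in low-ROS CMP, and its lid Hspe1 (Hsp10) had 2429, 2992 and 2159 in high-ROS CMP and 2204, 2974 and 2449 in low-ROS CMP. High-ROS replicate 3 was the lowest of the 6 arrays for both and replicate 2 the highest of each group, with group differences of -0.06 (SE 0.177) for Hspd1 and -0.01 (SE 0.138) for Hspe1. Without high-ROS replicate 3 that of Hspd1 was 0.18, and with the Gapdh covariate 0.33. Of the 9 listed mitochondrial members, 6 had a higher and 3 a lower mean in high-ROS CMP, with a median difference of 0.11.

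The genes whose names begin with Hspb were dim. Of these 10, 7 were at or below the median signal of all genes. A higher mean in high-ROS CMP was found for 9 (median difference 0.13), and for 9832 of all 18193 genes. Most encode small heat shock proteins, while Hspbp1 and Hspbap1 are named for what they bind. Hspb1 (Hsp25 in mice) had 27.7, 53.7 and 19.9 in high-ROS CMP and 15.3, 48.7 and 26.3 in low-ROS CMP, again with replicate 2 on top in both groups. Hspb8 had 31.4, 12.2 and 29.1 in high-ROS CMP and 30.6, 20.6 and 18.0 in low-ROS CMP, and Hspb6 57.1, 84.6 and 97.9 in high-ROS CMP and 28.6, 86.7 and 107 in low-ROS CMP. Their 95% intervals were wide, from -0.56 to 0.80 for Hspb1 and from -0.59 to 0.96 for Hspb6. Both intervals include 0.

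The stress-inducible members nearly all had their highest signals on the same replicate number, a pattern described after the values were seen. Of the 10 cytosolic members listed as stress-inducible, 9 had their highest signal on replicate 2 in high-ROS CMP and also on replicate 2 in low-ROS CMP, namely Hspa1a, Hspa1b, Hsph1, Hsp90aa1, Dnaja1, Dnajb1, Dnajb4, Hspa4l and Hspb1. The same was so for 13.8% of all genes and 18% of those above the median signal, for 0 of 8 constitutive cytosolic members, 2 of 10 in the endoplasmic reticulum and 4 of 9 in mitochondria. These counts use the brightest probe set of each gene. They take the near-identical copies Hspa1a and Hspa1b as separate members. Hspb1 was dim, at 53.7 or less on every array, so its highest array is less certain. Replicate 2 was also highest in both groups on every other probe set of Hspa1b, Hsph1, Dnajb1 and Hspb1. It was so on some but not all other probe sets of Dnaja1, Dnajb4 and Hsp90aa1. The same held for every other probe set of the constitutive Hspa8, and for a dimmer one each of Hspa4, Hspa14 and Dnajb6. It held for none of Dnaja2, Dnajc2 and Dnajc5. In high-ROS CMP, replicate 3 was highest on a dimmer probe set each of the inducible Dnaja1 and Hsp90aa1 and on most dimmer ones of Hspa4l. None of the dimmer probe sets of Hspa4l had replicate 2 highest in both groups. On the dimmest of Dnajb4, replicate 2 was the lowest array of low-ROS CMP. On the dimmest ones of Hsp90aa1, replicate 1 was the highest array of high-ROS CMP. The tenth inducible member, Hspb8, was highest on replicate 1 of each group. On average the 10 inducible members were 0.23 above their own 6-array mean on high-ROS replicate 2 and 0.26 above it on low-ROS replicate 2, on the log2 scale, and 0.19 below it on high-ROS replicate 3 and 0.18 below it on low-ROS replicate 1. For Hspa1b, replicate 2 exceeded the mean of the other two arrays by 0.47 in high-ROS CMP and by 1.02 in low-ROS CMP, against a group difference of 0.52. For Hsph1 these gaps were 0.47 and 0.66, against 0.11. The labels do not say whether a replicate number marks a shared day, sort or animal.

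**Figure D3:**
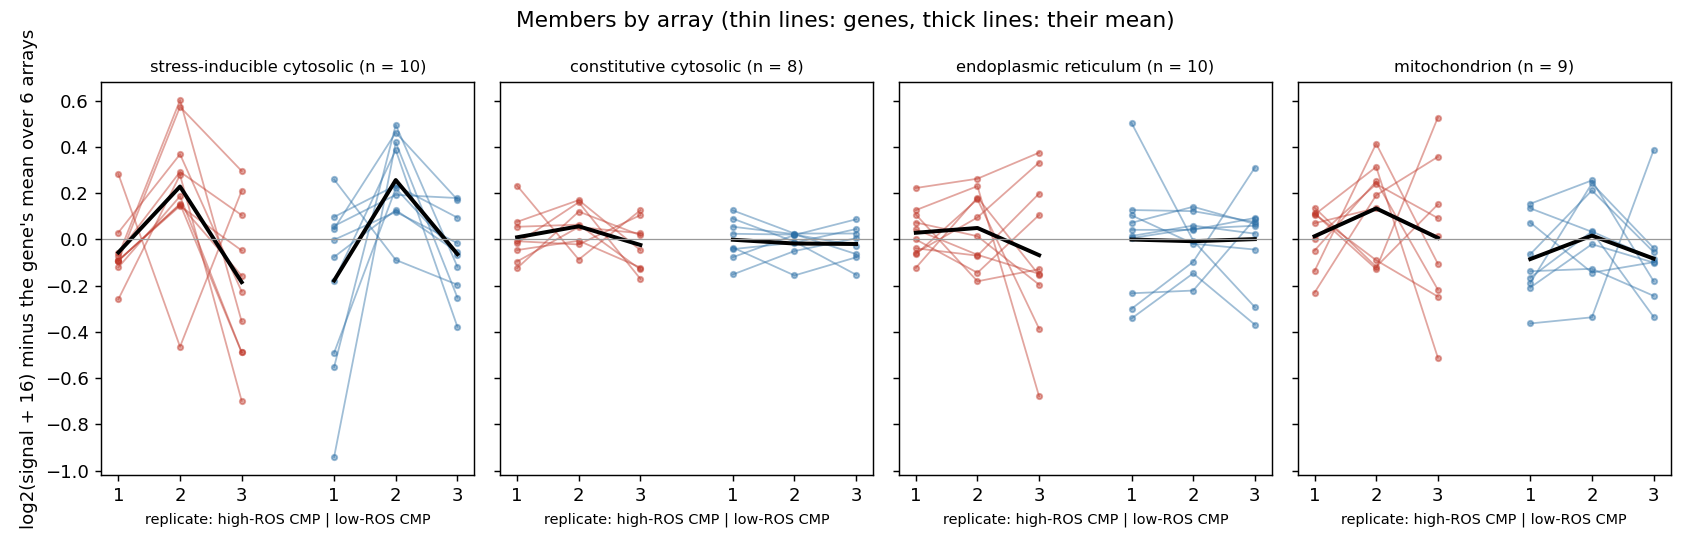
Each member's log2(signal + 16) on its brightest probe set, minus its own mean over the 6 arrays, for replicates 1 to 3 of high-ROS CMP (left in each panel) and low-ROS CMP (right), in 4 groups of members. Thin lines are genes and thick lines their mean; the stress-inducible mean peaks at 0.23 and 0.26 on replicate 2 of the groups, while the constitutive mean lies between -0.02 and 0.06.

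The immediate early genes, a class induced quickly by many stimuli, held replicate 2 highest in both groups for 14 of 23 measured genes, among them Fos, Jun, Egr1 and Dusp1. The chaperonin CCT and prefoldin list did so for 8 of 14, and the list of the unfolded protein response of the endoplasmic reticulum for 2 of 27. The counts were 5 of 12 for Hsp70 nucleotide exchange and release factors and 6 of 18 for Hsp90 co-chaperones. They were 2 of 10 for mitochondrial proteases and import genes and 1 of 5 for the heat shock factor list. Of the marrow stroma and endothelium markers, 6 of 10 did so, namely Col1a1, Col1a2, Col3a1, Cxcl12, Kdr and Emcn. Kdr, Col3a1 and Emcn were dim, at 38.45 or less on every array, so which of their arrays is highest is uncertain. The summed signal of those 10 markers was 1023, 1275 and 848 in high-ROS replicates 1 to 3 and 691, 1786 and 704 in low-ROS replicates 1 to 3. Col1a1, a collagen of stromal cells, had 353, 441 and 209 in high-ROS CMP and 49.1, 826 and 159 in low-ROS CMP, with low-ROS replicate 1 the lowest array as for Hspa1b. The other cell marker lists had 0 to 2 genes each with that pattern. The part of stromal cells or of immediate early induction in the replicate 2 values of the chaperones was not tested. High-ROS replicate 3 was the lowest of the 6 arrays for 19 of 72 members and for 22.5% of all genes, and for 17 of 52 members and 29.4% of all genes above the median signal. That array also had the highest Gapdh 3' to 5' ratio, 4.53, where the other 5 arrays lay between 2.54 and 3.57. It did not stand apart on the same ratio of Actb, which was 1.06 on that array and 0.976 to 1.05 on the other 5, or of Tfrc, which was 0.649 on that array and 0.626 to 0.650 on the other 5. The part of RNA completeness in the low values of that array was not tested beyond the Gapdh covariate, which is partly confounded with the group.

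Promoter sequences from RefSeq (GRCm38.p6) are shown for 3 members that shared the replicate 2 peak and for Hspa5, which did not on its brightest probe set. Promoter windows of 300 bases, from 250 before to 50 after the annotated start, were found for 59 of the 72 members. The heat shock element is a run of inverted GAA units, searched on both strands with 3 units (GAA, any 2 bases, TTC, any 2 bases, GAA) and with 2 (GAA, any 2 bases, TTC), and each match of the longer form holds a match of the shorter. The 59 members had 76 windows. The longer form was in the windows of 4 members, Hspd1, Hspe1, Hsph1 and Dnajb6, which is 6 of 76 member windows, and in 0.603% of all 32851 windows. The shorter was in those of 14 members, 16 of 76 member windows, and in 7.86% of all windows. The endoplasmic reticulum stress element, searched on both strands as CCAAT, any 9 bases and CCACG, was in those of Hspa5, Hsp90b1 and Dnajc3, 3 of 76 member windows, and in 0.119% of all windows. Capitals mark the matches, each window is written 5' to 3' on the gene's strand, and a match is a description of the letters, not a bound site.
Hsph1 (chr5:149636287-149636586, minus strand, 1 match of 3 units starting at base 37 after the start): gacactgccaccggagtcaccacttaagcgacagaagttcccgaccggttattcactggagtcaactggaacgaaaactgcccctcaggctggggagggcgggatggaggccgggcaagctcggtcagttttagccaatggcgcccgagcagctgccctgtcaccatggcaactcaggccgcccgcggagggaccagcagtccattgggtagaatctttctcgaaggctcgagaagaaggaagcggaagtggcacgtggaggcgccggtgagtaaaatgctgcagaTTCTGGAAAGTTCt
Hspe1 (chr1:55087898-55088197, plus strand, 2 overlapping matches of 3 units starting at bases -89 and -84): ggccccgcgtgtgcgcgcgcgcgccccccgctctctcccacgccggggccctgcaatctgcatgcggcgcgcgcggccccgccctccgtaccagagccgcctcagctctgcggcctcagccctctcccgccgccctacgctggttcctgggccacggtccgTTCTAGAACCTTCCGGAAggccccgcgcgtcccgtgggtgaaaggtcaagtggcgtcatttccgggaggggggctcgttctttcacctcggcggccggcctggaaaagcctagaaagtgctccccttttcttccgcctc
Hspa1b (chr17:34959189-34959488, minus strand, 1 match of 2 units starting at base -104): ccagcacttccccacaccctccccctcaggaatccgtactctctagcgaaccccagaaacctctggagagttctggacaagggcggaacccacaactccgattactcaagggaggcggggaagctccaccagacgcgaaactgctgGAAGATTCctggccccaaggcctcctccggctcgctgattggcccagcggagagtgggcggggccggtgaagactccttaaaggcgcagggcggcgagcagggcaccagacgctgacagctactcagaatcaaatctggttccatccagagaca
Hspa5 (chr2:34771840-34772139, plus strand, 1 match of the endoplasmic reticulum stress element starting at base -65): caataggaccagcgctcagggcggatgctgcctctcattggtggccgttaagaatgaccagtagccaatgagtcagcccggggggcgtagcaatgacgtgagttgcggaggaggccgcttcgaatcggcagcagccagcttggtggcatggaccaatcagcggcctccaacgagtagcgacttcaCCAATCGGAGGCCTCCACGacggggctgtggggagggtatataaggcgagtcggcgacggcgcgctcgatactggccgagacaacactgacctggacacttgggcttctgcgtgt

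Hspe1 and Hspd1 are transcribed in opposite directions from a shared promoter, and their windows, which overlap, hold the same elements. Both had the replicate 2 peak in each group described above. Hsph1 and Hspa1b had it too. On its brightest probe set Hspa5 had its highest signal on replicate 1 in high-ROS CMP and replicate 3 in low-ROS CMP. Its second probe set had replicate 2 highest in both groups, with 2895, 2928 and 2777 in high-ROS CMP and 2705, 2947 and 2877 in low-ROS CMP. Of the 14 members with the shorter heat shock form, 8 had replicate 2 highest in both groups, and 6 did not (Dnajb6, Dnajc27, Dnajc5g, Hspb3, Hspb6 and Hspb8). Over all 72 members, 21 had replicate 2 highest in both groups, and a link to the element was not tested. Of the 3 with the endoplasmic reticulum stress element, Dnajc3 had that pattern on its brightest probe set, while Hspa5 and Hsp90b1 did not on theirs. No match in the windows of Dnajb1 says only that these letters are not in them.

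Probe sets of the same gene often differed in sign. Of the 102 other probe sets, 43 had the opposite sign to the brightest one, and 9 lay more than 0.5 away on the log2 scale. Among the 38 of them with a mean signal above 200, 13 had the opposite sign and 1, of Dnajc3, lay more than 0.5 away. Dnajc6, which encodes auxilin, a partner of Hspa8 in clathrin uncoating, was named after its values were seen. Its brightest probe set had 206, 303 and 346 in high-ROS CMP and 345, 229 and 144 in low-ROS CMP, a difference of 0.28 (SE 0.281). Another had 60.6, 119 and 49.9 in high-ROS CMP and 145, 173 and 184 in low-ROS CMP, with every high-ROS array below every low-ROS array, a difference of -1.05 (SE 0.269). Among the named members with no value for their other probe sets above, the sign also differed on probe sets of mean signal above 200 for Dnaja1 (0.19), Dnaja2 (-0.31 and -0.27), Dnajc5 (-0.21), Hspa8 (0.14) and Dnajb6 (0.00). It differed on dimmer probe sets of Dnaja2, Dnajb5, Dnajc5, Hsp90aa1, Hspa9 and Hspb8. When each probe set was tested alone, the probe set of Dnajc6 at -1.05 had an adjusted limma p of 0.513, and 0 of the 174 passed.

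**Figure D4:**
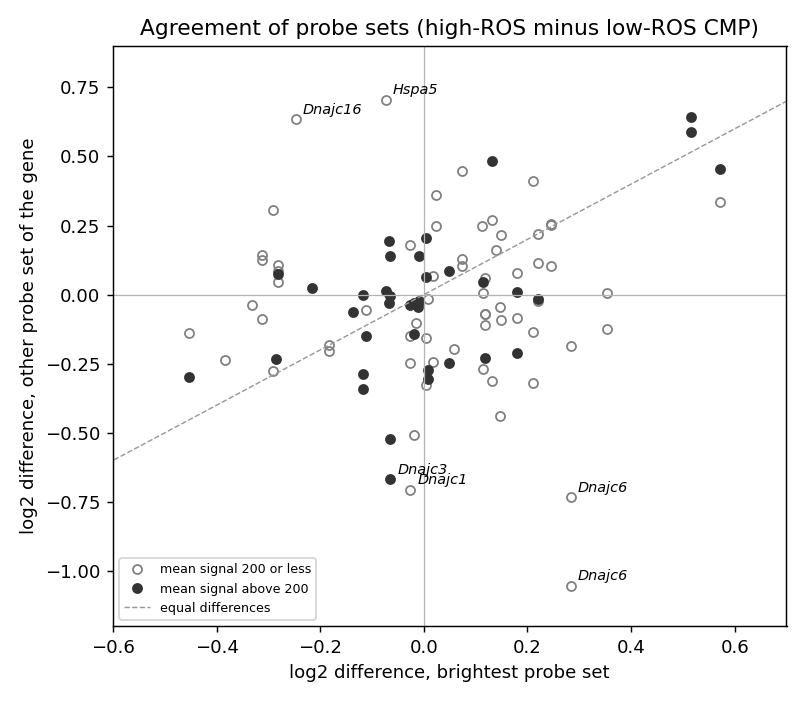
Log2 difference (high-ROS minus low-ROS CMP) of each other probe set of a member against that of the member's brightest probe set, with filled points for mean signals above 200. Hspa1b and Dnajc10 points lie at the upper right on all of their probe sets, and all 3 Dnajc6 points lie below 0 at the right, with opposite sign.

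Regulators and co-chaperones outside the named families gave 0 genes past an adjusted p of 0.05 as well. Hsf1 had no probe set of a single symbol and is not analysed here. Of the heat shock factor list, 5 of 7 genes were measured, and Hsf2 and Hsf4 had signals near the median or lower. The genes with the smallest p were Hsf5 (log2 difference 0.19) and Hsf2bp (log2 difference 0.17), both dim. Among 12 nucleotide exchange and release factors of Hsp70, 1 was lower at an unadjusted p under 0.05. This was Bag5, which had 407, 366 and 296 in high-ROS CMP and 501, 413 and 462 in low-ROS CMP. Its log2 difference was -0.36 (SE 0.159, limma adjusted p = 0.636). Sil1, the exchange factor of Hspa5, had 0.31 (SE 0.177). The median differences were -0.03 for that list, 0.04 over 18 Hsp90 co-chaperones, -0.01 over 14 CCT and prefoldin genes, 0.04 over 27 genes of the unfolded protein response and 0.13 over 10 mitochondrial proteases and import genes, with 0 members of these 4 lists at an unadjusted p under 0.05. The genes with the smallest p in each list, with their log2 differences, were Itgb1bp2 (-0.35) and Fkbp4 (-0.28) of the Hsp90 co-chaperones, Pfdn5 (-0.31) and Cct4 (0.18) of CCT and prefoldin, Syvn1 (0.35) and Ppp1r15a (-0.29) of the unfolded protein response, and Clpp (0.30) and Afg3l2 (0.27) of the mitochondrial list.

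Array and cell markers gave the following background. Array medians lay between 40.4 and 42.5. The mean signal without the extreme values was 193, 197 and 181 in high-ROS replicates 1 to 3. In low-ROS replicates 1 to 3 it was 196, 198 and 189. Replicate 2 was thus highest in both groups and high-ROS replicate 3 lowest. The part of this in the chaperone values was not tested. In the list of CMP genes Il3ra was dim, with means of 55.8 in high-ROS and 51.2 in low-ROS CMP. Kit, Cd34, Fcgr3 and Mpo of that list were all well above the median in both groups. So were genes of other lists, among them the neutrophil and monocyte marker S100a8, with means of 12643 in high-ROS and 12746 in low-ROS CMP. The erythroid marker Slc4a1 had means of 4985 and 6109, while Cx3cr1 and Hba-a1 of the same lists were dim. Cell identity was not tested. In the list of CMP genes Gata2 and Flt3 had the smallest p, with log2 differences of -0.72 and 0.56, and the brackets below also give log2 differences. Of 12 stem and multipotent progenitor markers, 9 were lower in high-ROS CMP at an unadjusted p under 0.05, Angpt1 (-1.11) also after adjustment and Tek (-2.07) not. Their summed signal was 931 to 1188 in high-ROS CMP and 1967 to 2233 in low-ROS CMP. Of 13 megakaryocyte markers, 6 were lower, F2r (-1.78) also after adjustment and Pf4 (-0.73) not, and they summed to 3060 to 3212 in high-ROS CMP and 4987 to 5389 in low-ROS CMP. Erythroid markers gave 2 of 13 lower (Slc4a1, -0.30, and Car2, -0.21), neutrophil and monocyte markers 6 of 15 higher (led by Ly86, 0.81, and Ms4a6c, 0.73), lymphoid markers 0 of 10 (Cd3e, 0.27, and Dntt, 0.20) and stroma and endothelium markers 1 of 10 (Kdr, -0.79, with Emcn at -0.34), all unadjusted and 0 after adjustment. Of 23 immediate early genes, 22 were below 0 in their difference, 5 of them at an unadjusted p under 0.05 and 0 adjusted, with Nr4a1 (-0.77) and Ier3 (-0.41) at the smallest p. The part of these differences in the values of the chaperones was not tested.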

How the data were processed

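RNA of sorted CMP was amplified, labelled with biotin and hybridised to one-colour arrays, per the labels' protocols. The deposited values are linear intensity summaries per probe set, and the probe summary, background correction and scaling behind them are not given in the sources used here. They were used as deposited, as log2(intensity + 16). Of 45101 probe sets, 34945 had 1 symbol in the platform annotation, 932 had several and 9160 were not listed there, and 64 were controls. Each of 18193 genes was read by its brightest probe set, and all 72 members matched RefSeq's gene table. High-ROS CMP were compared with low-ROS CMP (3 arrays each) by limma 3.58.1 in R 4.3.3 (lmFit, eBayes with a mean-variance trend, Benjamini-Hochberg adjustment over all genes), with 4 residual degrees of freedom. In 20 simulated data sets with independent normal noise, 200 of 18193 genes were changed by 1 or 2 log2 units. Of these, 58.1% of genes changed by 1 log2 unit and 95.3% of those changed by 2 were called. With fewer changed genes the adjustment is stricter, so these shares may be too high for the data, where 10 genes passed. Tables and figures were made with Python 3.11.15 and matplotlib 3.10.9.

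Members, lists and tests were chosen with earlier results of these data known. Named members are those at an unadjusted p under 0.05, the 8 with the highest mean signal, the 4 with the largest SD over the arrays, and a fixed list of well-known chaperones. Of each other list, the 2 genes with the smallest p are named. Alternatives were the trend, a filter on dim genes, quantile and median scaling, averaged or single probe sets, the replicate block, array weights, pseudocounts of 1 and 64, the Gapdh ratio as a covariate, an adjusted p under 0.1, and arrays left out.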

Additional observations from a re-analysis of the deposited data

How the results depend on the processing

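Under every alternative run, 0 members and 0 of the other chaperone pathway genes passed the adjusted threshold of limma, and the median member difference stayed between -0.04 and 0.06. Over all genes, 10 passed as reported, 0 without the mean-variance trend, 17 among genes above the median signal, 30 with array weights, 4 with a pseudocount of 64, 3 with the Gapdh covariate, 4 without high-ROS replicate 3 and low-ROS replicate 1, which end the first principal component, 17 at an adjusted p under 0.1, and 1 to 6 with each array left out in turn. Members at an unadjusted p under 0.05 numbered 2 of 72 as reported (2.78%, all genes 7.81%), 1 without the trend (1.39%, all genes 7.43%), 4 with array weights (5.56%, all genes 9.78%), 1 with a pseudocount of 64 (1.39%, all genes 7.66%), 6 with the Gapdh covariate (8.33%, all genes 6.05%), 4 without that pair of arrays (5.56%, all genes 6.77%), and 1 to 8 with each array left out, the highest without high-ROS replicate 2 (11.1%, all genes 10.4%). Leaving out both replicate 2 arrays, chosen after seeing the data, gave 0 genes and 5 members (6.94%, all genes 7.57%). The all-gene calls split into 3 higher and 7 lower as reported, and into 1 and 7 after quantile normalization. The deviations of same-numbered arrays correlated at 0.119, 0.0966 and 0.00275 over all genes, not all above 0.1, so the numbers were not taken to pair the arrays, and whether they do is unknown. With the replicate block 4 genes passed, and 5 members had an unadjusted p under 0.05 (6.94%, all genes 8.87%). Of the 27 named members, 20 changed sign under some setting, and 7 did not (Dnajb6, Dnajb9, Dnajc10, Hspa1a, Hspa1b, Hspa2 and Hspa9). The causes were not tested. With 3 arrays a group, differences of 1 log2 unit or less could be missed.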
